A study of Mus musculus with 13 samples.

Results

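The metabotropic glutamate receptors, G protein-coupled receptors for the transmitter glutamate, were followed across 4 ages in RNA of brain cells enriched for oligodendrocyte precursor cells (OPCs). Of this family 6 genes were taken, Grm2, Grm3, Grm4, Grm5, Grm7 and Grm8. They were taken by symbol and found in the deposited counts by their Ensembl identifiers through the GENCODE M21 annotation. They are 6 of 37785 genes in the files, and all 6 passed the filter on low counts, which left 21170 genes to test.

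All libraries came from brains of wild-type C57BL/6 mice, dissociated and enriched with magnetic beads against Pdgfra, a receptor tyrosine kinase on the surface of OPCs, and total RNA was sequenced in 13 bulk libraries. The groups were E16 (embryonic day 16, 3 libraries), P12 (postnatal day 12, 3 libraries), P80 (so titled, with an age field of P80, P81 and P81, 3 libraries) and P310 (so titled, with an age field of P306 to P308, 4 libraries). Only the P80 and P310 preparations went through beads that remove myelin, so age and this step cannot be told apart where P80 is set against a younger group. The labels speak of 3 to 4 mice and do not tie each library to 1 animal. The p-values below thus set differences between ages against the spread among these samples, which may not be separate mice.

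Glutamate receptors of this class signal through G proteins rather than by opening a channel, and fall into 3 groups. Group I, to which Grm5 belongs, couples to Gq and phospholipase C, which releases calcium from internal stores, while group II (Grm2 and Grm3) and group III (Grm4, Grm6, Grm7 and Grm8) couple to Gi/o and lower cyclic AMP. In the brain Grm3 is known as a receptor of astrocytes as well as neurons, Grm2, Grm4, Grm7 and Grm8 mainly as presynaptic receptors that limit transmitter release, and Grm5 as a postsynaptic receptor that immature glia also carry.

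Totals ranged from 8669521 to 25810455 counts per library. P12 replicates 2 and 3 differed by 2.344 times counting noise, against 16.6 to 179 for the other 14 pairs of the same age, and were summed into 1 sample called P12 replicate 2-3. That left 3, 2, 3 and 4 samples at the 4 ages. Levels are given as CPM, reads relative to library size after TMM scaling, as mean ± SD over these samples. Pdgfra itself ranged from 25.1 to 38.4 CPM at E16, 46.65 to 93.6 at P12, 17.2 to 53.4 at P80 and 13.7 to 68.8 at P310. The summed CPM of 20 OPC markers was 886 to 1057, 667 to 834, 369 to 451 and 275 to 488 in the samples of the 4 ages, with Neu4 at 0 at E16. Single OPC markers went both ways, with 3 of the 20 rising, 4 falling and a median log2 change of 1.11 from E16 to P12. Marker sums of other cell types were as large or larger: immature neurons at E16 (18 genes, 8613 to 9861), endothelial cells at the later ages (14 genes, 4502 to 8437) and astrocytes at the later ages (16 genes, 913 to 4001). The fractions were thus mixed, and in bulk RNA fewer cells of a type and less RNA per cell cannot be told apart. Mitochondrial genes took 1.52 to 3.54% of counts at E16 and 18.3 to 34.4% at P310. P12 replicate 1 and P310 replicate 2 stood apart in genes of myelinating oligodendrocytes (8493 and 67761 CPM, against 72.1 to 1246 in the other samples).

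The sequences just upstream of Grm3, Grm7 and Grm2 are shown, chosen by the levels of these genes. Grm3 and Grm7 were the receptors called higher at P80 than at E16, Grm7 only at the threshold. Grm2 had no count in 2 of 3 young adult samples. Each sequence is the 250 bases before the most upstream start in RefSeq (GRCm38.p6), written 5′ to 3′ on the strand of the gene. RefSeq's table held 4 of the 6 genes, these and Grm8. The capitals mark each GC box (GGGCGG, searched on both strands), the element bound by Sp1.
Grm3 promoter, chr5:9725353-9725602, minus strand: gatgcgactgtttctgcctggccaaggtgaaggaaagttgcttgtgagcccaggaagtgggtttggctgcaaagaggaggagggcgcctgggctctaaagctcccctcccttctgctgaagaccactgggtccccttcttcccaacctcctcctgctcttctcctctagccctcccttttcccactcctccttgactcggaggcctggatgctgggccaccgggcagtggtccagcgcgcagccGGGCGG
Grm7 promoter, chr6:110645262-110645511, plus strand: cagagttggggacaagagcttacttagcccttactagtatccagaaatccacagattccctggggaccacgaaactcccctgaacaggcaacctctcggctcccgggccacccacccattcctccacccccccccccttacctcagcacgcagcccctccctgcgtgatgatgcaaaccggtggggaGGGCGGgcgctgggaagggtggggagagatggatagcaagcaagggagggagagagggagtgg
Grm2 promoter, chr9:106656110-106656359, minus strand: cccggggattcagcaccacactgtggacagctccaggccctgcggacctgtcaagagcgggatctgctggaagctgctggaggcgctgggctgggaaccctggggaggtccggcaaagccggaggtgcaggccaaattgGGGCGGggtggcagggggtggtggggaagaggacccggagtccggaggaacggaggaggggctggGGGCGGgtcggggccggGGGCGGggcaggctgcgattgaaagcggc
The single GC box of Grm3 began 6 bases before the start and that of Grm7 63 bases before it, and the 3 of Grm2 began 111, 46 and 29 bases before it. The window of Grm8, which is not shown and whose gene was not called at any step, also held 1 GC box. Of the 32817 promoters of this length 32.7% held a GC box. None of the 4 windows held a TATA box (TATAAA, 12.4% of promoters), an E-box (CANNTG, 66.2%) or the core of a cyclic AMP response element (TGACG, 17.7%), on either strand. Their GC content was 71.2% for Grm2, 62.4% for Grm3, 62% for Grm7 and 68.4% for Grm8, against a median of 52.4% over all promoters (quartiles 45.2 and 61.2%). These matches describe letters and carry no measurement of binding.

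Grm3 (ENSMUSG00000003974, GRCm38 chr5:9485541-9725170, minus strand), a group II receptor that also responds to the peptide transmitter N-acetylaspartylglutamate (NAAG), was higher at P12 and P80 than at E16. P310 was not tested against E16. At E16 its level was 5.47, 4.71 and 4.01 CPM in replicates 1 to 3. At P12 it was 31.7 in replicate 1 and 31.6 in replicate 2-3. The E16 and P12 samples did not overlap, and the pair of P12 samples lay within 0.0314 CPM (SD) of their mean. The log2 change was 2.74 (SE 0.63, 95% interval 1.38 to 4.10, adjusted p = 0.00476, edgeR's quasi-likelihood test with Benjamini-Hochberg adjustment). Of the 6 receptors it was the 1 called in this comparison, and the 1 whose samples did not overlap. The background was wide, with 27.2% of all genes tested called in either direction, 16.7% called higher and 61.8% without overlap. In all 24 alternatives Grm3 was called at this step, with log2 changes of 2.54 to 2.86.

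In the adult the level of Grm3 was lower and more uneven. At P80 it was 8.11, 24.2 and 11.75 CPM, each below both P12 samples and above every E16 sample. At P310 it was 14.5, 28.7, 9.09 and 3.995 CPM, so that replicate 4 lay just under the lowest E16 sample. From P12 to P80 the log2 change was -1.11 (SE 0.62, interval -2.43 to 0.21), which was not called (adjusted p = 0.635, edgeR). None of the 6 receptors was called at that step, where 1.42% of all genes were, and Grm3 was the 1 receptor without overlap, against 26.6% of all genes. P80 against E16 gave 1.63 (SE 0.58, interval 0.38 to 2.87, adjusted p = 0.0375, edgeR), a call that ended in 4 of 24 alternatives. They were the fits without E16 replicate 1, 2 or 3 (1.74, 1.63 and 1.52) and without P80 replicate 2, where the change was 1.07 (adjusted p = 0.177; range over alternatives 0.00131 to 0.177). Over the 4 ages jointly Grm3 was the 1 receptor called (adjusted p = 0.0204, edgeR), against 37.1% of all genes. That call ended in 5 of 23 alternatives, the fits without 1 of the E16 replicates or of the P12 samples (adjusted p = 0.0571 to 0.0849).

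**Figure D1:**
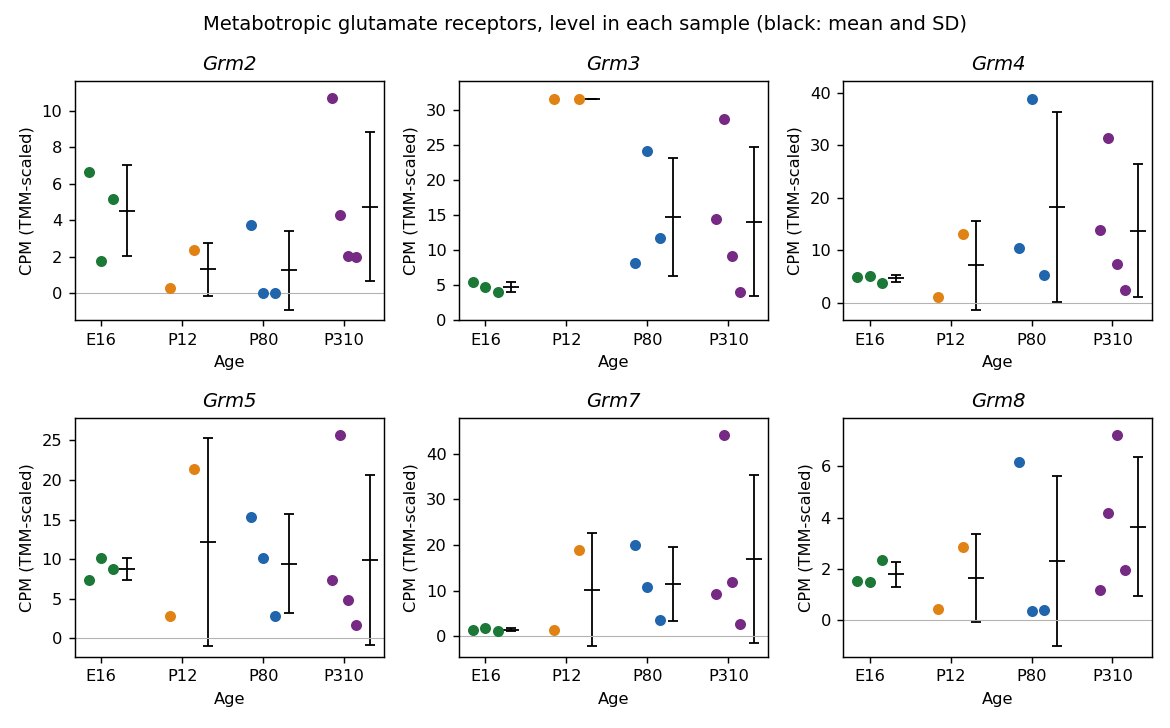
Level of each receptor in each sample, in TMM-scaled CPM on the y axis, by age on the x axis; points are samples and the black marks give the mean and SD (n = 3, 2, 3 and 4). The P12 points of Grm3 coincide at 31.6 and 31.7, while those of Grm7 lie at 1.43 and 18.9.

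Markers of several other cell types rose over the step at which Grm3 rose. From E16 to P12 these were endothelial (14 of 14 genes), microglial (11 of 12), ependymal and choroid plexus (10 of 12), mural (8 of 10), myelinating oligodendrocyte (8 of 14) and astrocyte markers (13 of 16). Committed oligodendrocyte precursor markers went both ways (5 of 12 rose and 2 fell), as did OPC markers (3 of 20 rose and 4 fell). Among the OPC markers, Pdgfra, Olig2, Sox10 and Cspg4 had means of 33.0, 5.86, 3.43 and 13.6 CPM at E16. At P12 their means were 70.15, 14.2, 31.0 and 59.6 CPM. Astrocytes are known to carry Grm3, and their sum (16 genes) was 484 to 569 CPM at E16, 3328 and 4001 at P12, 1621 to 2406 at P80 and 913 to 1890 at P310, with Agt at 0 in every E16 sample. No astrocyte marker fell from E16 to P12, and from E16 to P80 14 rose and none fell. The astrocyte sum differed by a ratio of 1.202 between the P12 samples, where that of Grm3 was 0.999. P310 replicate 2, the P310 sample with the most Grm3, had 1719 CPM of astrocyte markers, below the 1890 of replicate 1. The part of RNA of astrocytes, of OPCs or of the other cell types in the change of Grm3 was not tested.

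Grm2 (ENSMUSG00000023192, chr9:106643095-106656082, minus strand), the other group II receptor, a presynaptic receptor of neurons, was low and uneven. Its level was 6.62, 1.75 and 5.19 CPM at E16 and 0.249 and 2.33 at P12. At P80 replicate 1 had 3.74 CPM (59 counts) and replicates 2 and 3 had no count, where 3 counts would be 0.341 and 0.213 CPM of the raw totals (a limit for counting error alone, as PCR duplicates were not told apart). At P310 it was 10.7, 4.29, 2.05 and 1.955 CPM. Neighbouring ages overlapped throughout. The log2 changes were -1.76 (interval -5.17 to 1.64) from E16 to P12, -0.04 (-3.29 to 3.21) to P80 and 1.87 (-1.02 to 4.75) to P310, none of them called (adjusted p = 0.451, 0.9992 and 0.9035, edgeR). P80 against E16 gave -1.80 (adjusted p = 0.318), and -9.15 without P80 replicate 1 (adjusted p = 0.00403), a fitted value against samples with no count that is no bound. The antisense transcript Gm28111 shares 470 of Grm2's exon bases (9.6%), and since the counting used no strand option reads there cannot be assigned to a strand. Gm28111 itself had 0 to 3 counts per library.

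Grm5 (ENSMUSG00000049583, chr7:87584168-88134907, plus strand) is the group I receptor followed here, coupled to Gq. Its level was 7.41, 10.2 and 8.79 CPM at E16, 2.86 and 21.4 at P12, 15.3, 10.1 and 2.85 at P80 and 7.39, 25.6, 4.81 and 1.70 at P310. The E16 samples lay within the range of every later age. No step was called, with log2 changes of 0.47 (interval -1.71 to 2.65) from E16 to P12, -0.37 (-2.56 to 1.82) to P80 and 0.06 (-1.81 to 1.93) to P310. Together these intervals reach from -2.56 to 2.65 on the log2 scale, and a change within the interval of its step is not excluded. P80 against E16 gave 0.10 (-1.89 to 2.09, adjusted p = 0.941, edgeR).

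Grm7 (ENSMUSG00000056755, chr6:110645581-111567230, plus strand), a group III receptor of presynaptic active zones, was low in the embryo and higher in the adult. At E16 it had 1.295, 1.81 and 1.24 CPM, from 18 to 30 counts. At P12 replicate 1 had 1.43 CPM, within the E16 range, and replicate 2-3 had 18.9. At P80 it had 19.9, 10.9 and 3.55 CPM, all above E16. At P310 it had 9.24, 44.0, 11.9 and 2.72 CPM, also all above E16. P80 against E16 gave a log2 change of 2.97 (SE 1.10, interval 0.57 to 5.38, adjusted p = 0.0488, edgeR). Grm3 and Grm7 were the 2 of 6 receptors called in that comparison, both higher, against 40.7% of all genes called in either direction and 21.5% called higher. The call of Grm7 lies at the threshold and ended in 8 of 24 alternatives, with log2 changes that stayed between 2.30 and 3.47. They were limma-voom (adjusted p = 0.0514) and the fits without E16 replicate 1, 2 or 3 (adjusted p = 0.131, 0.102 and 0.140), P80 replicate 1 or 2 (adjusted p = 0.138 and 0.0846) or P310 replicate 1 or 3 (adjusted p = 0.05996 and 0.0614).

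From E16 to P12 the log2 change of Grm7 was 2.82 (SE 1.15, interval 0.30 to 5.33), which did not pass the test (adjusted p = 0.0928, edgeR). Left without P12 replicate 2-3 it was -0.02 (adjusted p = 1), and left without P12 replicate 1 it was 3.70 (adjusted p = 0.0314), so the value rests on that sample. Over alternatives the adjusted p ran from 4.29e-06 to 1, and 7 of 24 called it. From P12 to P80 the change was 0.16 (-2.28 to 2.59) and from P80 to P310 0.56 (-1.50 to 2.63). The antisense transcript Gm20387 (1 to 80 counts per library) shares 130 exon bases with Grm7 (2.21%).

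Grm4 (ENSMUSG00000063239, chr17:27422387-27513341, minus strand), a group III receptor known from the terminals of cerebellar granule cells, had 4.97, 5.13 and 3.83 CPM at E16 and 1.18 and 13.1 at P12. At P80 it had 10.4, 38.9 and 5.355 CPM, all above E16, and at P310 13.9, 31.3, 7.40 and 2.38. Its change from E16 to P80 was 1.96 (SE 1.02, interval -0.28 to 4.20) and was not called (adjusted p = 0.148, range over alternatives 0.000361 to 0.574, called in 4 of 24). Those calls came with no filter, with only the ages compared, and in the 2 fits chosen after the data were seen. With Grm3 and Grm7 it made 3 of 6 receptors whose P80 and E16 samples did not overlap, against 58.2% of all genes. From E16 to P12 the change was 0.64 (-1.75 to 3.02), with -1.97 when P12 replicate 2-3 was left out and 1.49 when P12 replicate 1 was. From P12 to P80 it was 1.33 (-1.17 to 3.82) and from P80 to P310 -0.40 (-2.41 to 1.60). The summed markers of cerebellar granule cells (12 genes) were 336 to 393 CPM at E16 and 235 to 395 at the later ages (235 to 301 at P80), and 4 of the 12 rose and 2 fell from E16 to P80. Their part in the level of Grm4 was not tested.

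Grm8 (ENSMUSG00000024211, chr6:27275119-28135178, minus strand), also of group III, had the lowest mean of the 6 per length at each age. Its level was 1.51, 1.51 and 2.36 CPM at E16, 0.435 and 2.86 at P12, 6.145, 0.3705 and 0.417 at P80, and 1.19, 4.18, 7.22 and 1.955 at P310. P80 replicate 1 had 97 counts, while replicates 2 and 3 had 3 and 6. No step was called, with changes of -0.10 (interval -2.59 to 2.40), 0.48 (-2.03 to 3.00) and 0.64 (-1.49 to 2.76) in order of age. The microRNA gene Mir592 lies in exons of Grm8 on the same strand and had at most 1 count.

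From P80 to P310, the step on which both groups had the myelin removal beads, no receptor was called and all 6 overlapped. In all, 0 of 21170 genes (0%) were called there by edgeR, 1162 had an unadjusted p under 0.05 and DESeq2 called 28. The largest fitted change among the receptors was that of Grm2 (1.87), and the intervals of the others reached from -2.41 to 2.76. Ranges of 4.86% of all genes did not overlap.

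**Figure D2:**
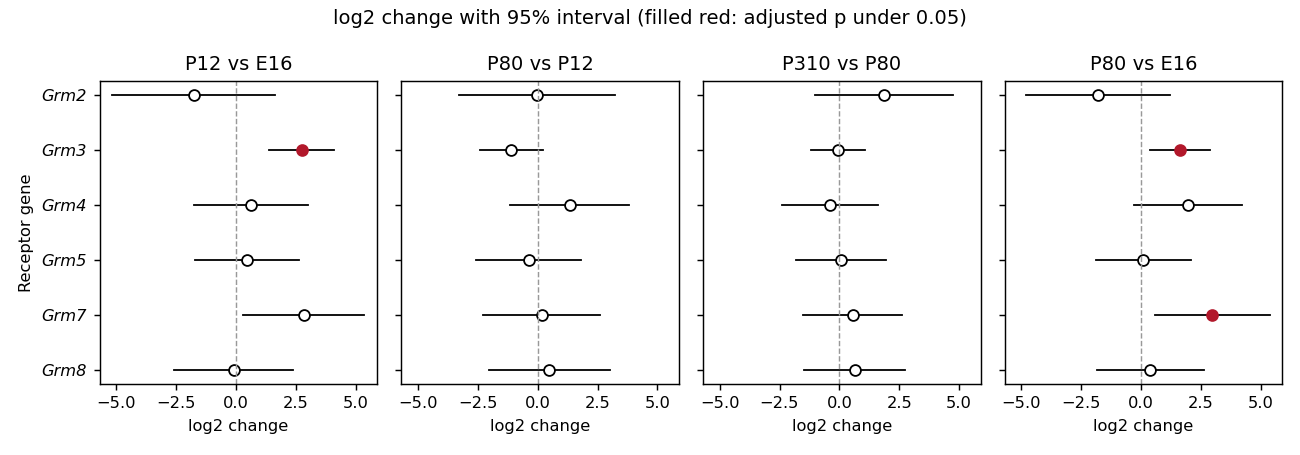
Fitted log2 change of each receptor (y axis) in 4 comparisons of ages, with the 95% interval as a line; filled red points had an adjusted p under 0.05. Grm3 is filled in P12 vs E16 (2.74) and with Grm7 in P80 vs E16 (1.63 and 2.97), and no point is filled in the steps between P12, P80 and P310.

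The median log2 change of the 6 receptors was 0.55 from E16 to P12, 0.06 to P80 and 0.31 to P310, beside medians of 0.09, -0.03 and 0.03 over all genes tested. P80 against E16 gave a median of 1.01 beside 0.12. Both comparisons with E16 use the same E16 samples. With upper quartile scaling the median of all genes from E16 to P80 was 0.24 in place of 0.12.

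The pair of P12 samples split the receptors. Between P12 replicate 1 and replicate 2-3 Grm3 differed by a ratio of 0.999, while the other 5 were higher in replicate 2-3, by 6.575 for Grm8, 7.48 for Grm5, 9.375 for Grm2, 11.1 for Grm4 and 13.2 for Grm7. In the same samples 16 mature neuron markers summed to 62.0 and 346 CPM, a ratio of 5.58, with no marker at 0 in both. Immature neuron markers differed by a ratio of 1.06, microglia by 1.07, OPC markers by 1.25 and endothelial markers by 0.7675. Myelinating oligodendrocyte markers ran the other way (8493 and 561 CPM), as did ependymal and choroid plexus markers (5655 and 900). With 1 sample on each side these ratios carry no test, and the part of neuronal RNA in them was not tested.

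**Figure D3:**
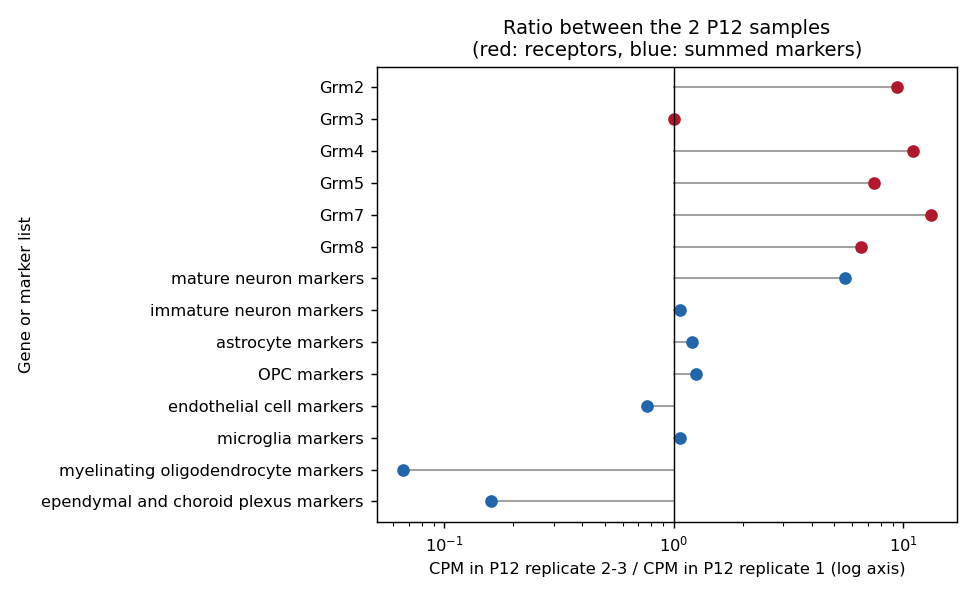
Ratio of the CPM in P12 replicate 2-3 to that in P12 replicate 1 on a log axis, for each receptor (red) and for the summed CPM of marker lists (blue), with lines drawn from a ratio of 1. Grm3 sits at 0.999, the other receptors between 6.575 and 13.2, and mature neuron markers at 5.58.

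The mature neuron sum was 639 to 787 CPM at E16, 84.8 to 330 at P80 and 77.8 to 766 at P310. Of these 16 markers none rose and 4 fell from E16 to P12, and none rose and 7 fell from E16 to P80. Within the later ages, the samples with the most Grm7, P310 replicate 2 (44.0 CPM), P80 replicate 1 (19.9) and P12 replicate 2-3 (18.9), had neuron sums of 766, 290 and 346. P310 replicate 1 and P80 replicate 2 had sums of 425 and 330 with less Grm7 (9.24 and 10.9 CPM). The samples with the least Grm7 after birth were P12 replicate 1, P310 replicate 4 and P80 replicate 3 (1.43, 2.72 and 3.55 CPM), and these had the lowest neuron sums (62.0, 77.8 and 84.8). P310 replicate 2 was also the P310 sample with the most Grm3, Grm4, Grm5 and Grm7. The part of neuronal RNA in the level of Grm7 was not tested.

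**Figure D4:**
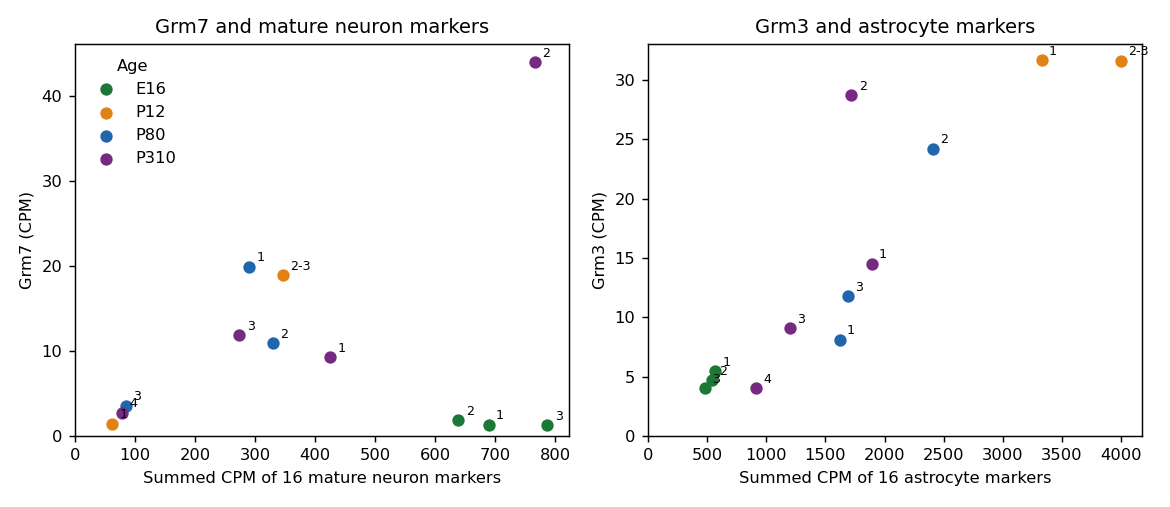
Left, Grm7 (CPM, y axis) against the summed CPM of 16 mature neuron markers; right, Grm3 against the summed CPM of 16 astrocyte markers; each point is a sample, coloured by age and numbered by replicate. The E16 samples lie at 639 to 787 CPM of neuron markers with Grm7 at 1.24 to 1.81, and at the lowest astrocyte sums (484 to 569) on the right.

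Levels of different receptors were compared per length, as TMM-scaled CPM per kilobase of exon (RPKM). On this scale Grm3 was the highest of the 6 in 11 of 12 samples, the exception being P80 replicate 1, where Grm7 was. In CPM, without the length, Grm3 was the highest in 5 of 12, Grm5 and Grm7 in 3 each and Grm4 in 1. Grm3 has 3049 exon bases and Grm5 has 10247. At E16 the order of the RPKM levels was Grm3 (1.55 ± 0.24, SD, n = 3), Grm2 (0.924 ± 0.512), Grm4 (0.873 ± 0.133), Grm5 (0.859 ± 0.136), Grm7 (0.246 ± 0.0535) and Grm8 (0.181 ± 0.0495). Neighbours in this order overlapped except Grm5 and Grm7, between which there was a gap. At P12 Grm3 (10.4 ± 0.0103, n = 2) stood apart from Grm7 (1.73 ± 2.1), Grm4 (1.34 ± 1.58), Grm5 (1.18 ± 1.28), Grm2 (0.264 ± 0.301) and Grm8 (0.167 ± 0.173), and these 5 overlapped with their neighbours. At P80 the order was Grm3 (4.82 ± 2.77, n = 3), Grm4 (3.43 ± 3.402), Grm7 (1.94 ± 1.39), Grm5 (0.921 ± 0.612), Grm2 (0.255 ± 0.441) and Grm8 (0.234 ± 0.336), and at P310 Grm3 (4.62 ± 3.49, n = 4), Grm7 (2.88 ± 3.13), Grm4 (2.59 ± 2.38), Grm2 (0.970 ± 0.839), Grm5 (0.964 ± 1.05) and Grm8 (0.367 ± 0.273). No neighbours differed beyond their spread at either adult age.

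The make-up of the set differed between samples. The 6 receptors summed to 4.32 to 5.18 RPKM at E16, 11.2 and 18.9 at P12, 5.785 to 18.1 at P80 and 2.98 to 26.6 at P310. Grm3 took 29.9 to 35.7% of this sum at E16, 54.9 and 92.5% at P12, 24.5 to 66.6% at P80 and 35.4 to 43.9% at P310. Grm7 took 4.25 to 7.12% at E16, 2.17% in P12 replicate 1, 17.0% in P12 replicate 2-3 and 10.2 to 31.1% in the 7 adult samples. Grm5 had the larger share at E16, 14.0 to 23.0% at E16 against 2.49 and 11.05% at P12 and 4.81 to 13.8% in the adult samples, although its own level did not pass the test. Grm2 took 8.275 to 26.1% at E16, 0.453 and 2.52% at P12 and 0 to 18.3% in the adult samples. These shares are of 1 sum and move against each other, and they were not tested.

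**Figure D5:**
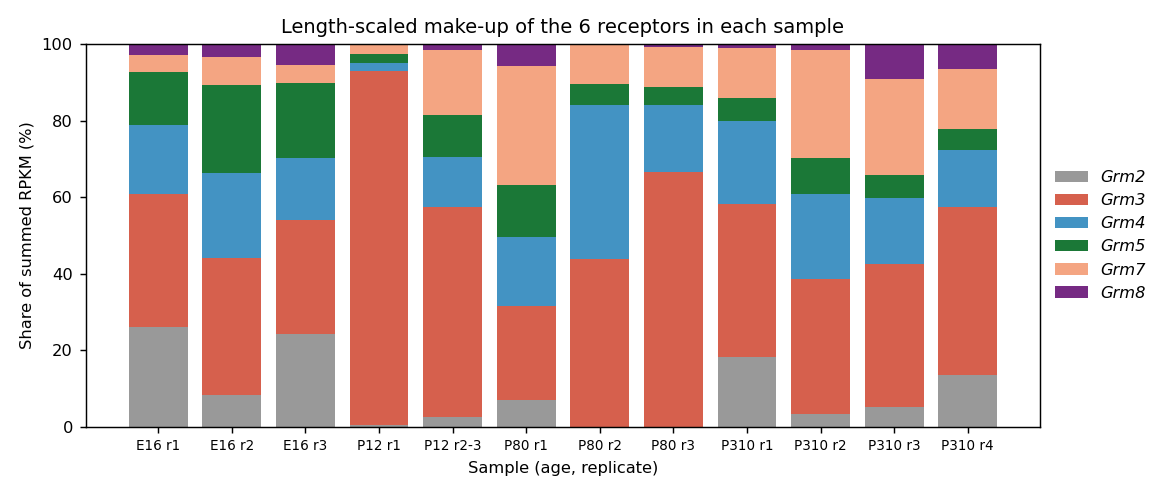
Share of each receptor in the summed RPKM of the 6 receptors (y axis, %) in each of 12 samples (x axis, age and replicate). Grm3 fills 92.5% of the bar of P12 replicate 1, and Grm7 takes 10.2 to 31.1% in the adult samples against 4.25 to 7.12% at E16.

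Grm6, the receptor of retinal ON bipolar cells, had no count in E16, P80 and P310 libraries and 2 to 6 in P12 libraries, and did not pass the filter on low counts.

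Among the receptors, the log2 CPM of Grm4 and Grm7 varied most alike over the 12 samples (Pearson r = 0.80), followed by Grm4 and Grm5 (0.72) and Grm2 and Grm8 (0.69). Grm3 went least with Grm2 (-0.36) and Grm8 (-0.25). Among 13376 coding genes whose mean reached 5 CPM at some age, those most like Grm3 were Cspg5 (r = 0.930), Slc6a11 (0.915), Acsl6, Slc43a2 and Tiam1. Those most like Grm7 were Ptprn (0.976), Ryr2 (0.975), Matk, Grin2a and Snhg11, those most like Grm4 Atp2b2 (0.967), Epha6, Sptbn4, Caln1 and Zfyve28, and those most like Grm5 Camkv (0.943), Gria1, Scn8a, Adgrb1 and Begain. For Grm2 they were Cyp26b1 (0.925), Pusl1, Zscan25, Aplf and Rims4, and for Grm8, the lowest, Tmem181a (0.866), Cacna1d, Creld1, Sgsm1 and Map7d2. These correlations describe 12 samples that share ages, depth and cell mixture, and no p is given.

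Genes of the signalling arms were read against all genes tested, of which 16.7% rose and 10.5% fell from E16 to P12 and 21.5% rose and 19.2% fell from E16 to P80. Of 23 genes of the Gq and phospholipase C arm, 9 (39.1%) rose and 1 (4.35%) fell from E16 to P12 (median log2 change 1.01, against 0.09 over all genes), 2 rose from P12 to P80, none was called from P80 to P310, and 11 (47.8%) rose and 2 (8.7%) fell from E16 to P80 (median 1.16, against 0.12). The inositol trisphosphate receptors Itpr3 and Itpr2, calcium channels of internal stores, rose from 5.15 ± 1.09 to 179 ± 52.8 CPM and from 10.7 ± 1.74 to 130 ± 26.7 at P12 (n = 3 and 2), changes of 5.11 and 3.60. Plcb3 rose by 2.17, while Plcb1, the isoform of many neurons, fell by 1.04 at P12 (a range of -1.21 to -0.83 over alternatives, with the call ended without P12 replicate 1). Over alternatives the counts were 6 to 11 and 0 to 3 at P12 (none fell without P12 replicate 1) and 9 to 12 and 0 to 2 from E16 to P80 (none fell without E16 replicate 1 or P80 replicate 3). Plcb1 and Plcb4 rose from P12 to P80 by 1.14 and 0.95, calls that ended in 9 and 10 of 24 alternatives. Endothelial and microglial markers rose at the same step (14 of 14 and 11 of 12 genes from E16 to P12), and their part was not tested.

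The Gi/o and adenylyl cyclase arm of groups II and III went both ways. Of 23 genes 5 rose and 3 fell from E16 to P12 and 5 rose and 5 fell from E16 to P80, with medians of -0.19 and -0.58. The counts are 21.7 and 13% of the list at P12 and 21.7% each way at P80, near the shares over all genes. Over alternatives 3 to 8 rose and 3 to 5 fell at P12 (3 rose without P12 replicate 2-3), and 4 to 7 rose and 5 to 12 fell from E16 to P80, with 8 falling without P310 replicate 2. The adenylyl cyclases Adcy9 and Adcy6 and the inhibitory G protein Gnai2 rose by 1.61, 1.09 and 1.18 at P12. Prkar2b and Prkar1b, regulatory subunits of protein kinase A, fell by 3.34 and by 2.32, and the G protein Gnaz fell by 1.80. Of 24 scaffolds and binding partners 6 rose and 4 fell at P12 (1 fell without P12 replicate 1), and 6 rose and 8 fell at P80 against E16, or 25 and 16.7% and then 25 and 33.3% of the list. Among them Homer1, which binds group I receptors, fell from 49.5 ± 3.35 to 19.3 ± 1.685 CPM (-1.36, a call that ended without either P12 sample), and Shank3 rose from 31.6 ± 6.15 to 221 ± 44.1. Of 20 genes of receptor desensitisation 5 rose and 2 fell at P12 (3 rose without P12 replicate 2-3, E16 replicate 1 or E16 replicate 3, and none fell without P12 replicate 1 or E16 replicate 1), and 10 rose and 2 fell at P80 against E16 (25 and 10%, then 50 and 10%), with the G protein regulator Rgs3 at 2.39. The second fall at P80, that of Rgs16, ended in each fit without 1 of the E16 replicates or without P80 replicate 1 or 2.

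The ligands are made, broken down and cleared by further genes. Over all genes tested, 16.7% rose and 10.5% fell from E16 to P12, and 21.5% rose and 19.2% fell from E16 to P80. Of 7 genes of NAAG metabolism 3 rose and 1 fell at P12 (1 rose without P12 replicate 1), and 3 rose and 2 fell at P80 against E16 (42.9 and 14.3%, then 42.9 and 28.6%, of a short list). Naalad2, a NAAG peptidase, rose from 1.042 ± 0.733 to 9.45 ± 5.11 CPM at P12 and 17.1 ± 6.06 at P80. Folh1, also called higher, had a mean of only 0.059 CPM at E16. Its call held in 14 of 24 alternatives at P12 and in 17 of 24 from E16 to P80. Rimklb, a NAAG synthetase, fell from 81.5 ± 7.65 to 14.65 ± 3.39 and 6.38 ± 1.38 CPM. Of 16 tested genes of glutamate release, uptake and synthesis 6 rose and 2 fell at P12, and 6 rose and 3 fell at P80 against E16 (37.5 and 12.5%, then 37.5 and 18.8%). The second fall at P12, that of the glutamine transporter Slc38a1 (-1.04), ended in 9 of 24 alternatives. Glul, the glutamine synthetase of astrocytes, rose from 80.6 ± 5.01 to 634 ± 60.6 CPM at P12 (2.97), and Slc17a6, a vesicular glutamate transporter of neurons, fell from 44.9 ± 7.20 to 1.805 ± 1.585 (-4.58, and -6.02 to -3.90 over alternatives). Astrocyte markers rose and immature neuron markers fell over the same ages (13 of 16 and 16 of 18 genes at P12), and their part in these changes was not tested.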

How the data were processed

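Bulk total RNA of 13 libraries was measured, 3 at E16, 3 at P12, 3 at P80 and 4 at P310. The authors deposited raw counts for each gene, which featureCounts 1.5.0-p1 assigned to exons of the Ensembl 92 annotation at a minimum overlap of 10 bases, per the file headers. Reads over several genes or places were counted for each, and no strand option was set. The submitters' processing notes name Trim Galore, TopHat2 2.1.1 and GRCm38 (mm10). The deposited exon length gave the RPKM scale.

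Low counts were filtered with filterByExpr (grouped by age), libraries were scaled by TMM, and edgeR 4.0.16 under R 4.3.3 fitted a mean per age to 12 samples with its robust quasi-likelihood F test (common biological coefficient of variation 0.513). Adjustment was by Benjamini-Hochberg over 21170 genes, with a threshold of 0.05. The SE is the log2 change divided by the square root of F, and intervals are at 95%. Likeness used log2 CPM with a prior count of 2. Python 3.11.15 with numpy 2.4.6, pandas 2.3.3 and matplotlib 3.10.9 was used for summaries. Before use, the fit was run on counts simulated from its own model and dispersions. Such a run checks the code and cannot show whether the model suits outlying samples.

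The receptors, 7 pathway lists and 13 marker lists were chosen with earlier results of these data known. Pathway and marker lists share some genes, so their counts are not independent. Itpr2 is also a committed oligodendrocyte precursor marker, Aspa a myelinating oligodendrocyte marker, Rgs5 a mural marker and Slc17a6 a mature neuron marker. The rule names all 6 receptors, the 5 coding genes most like each, and up to 3 called genes per pathway list and direction with the smallest adjusted p. Fewer are printed than the rule allows, a choice made after their values were seen. Alternatives were RLE and upper quartile scaling, no filter or 1 CPM in 3 libraries, DESeq2 1.42.0, limma-voom (limma 3.58.1) with quality weights, a fit of only the ages compared, a replicate block, removal of mitochondrial, ribosomal and haemoglobin genes, separate P12 replicates 2 and 3, and omission of each replicate in turn. Tallies over 24 alternatives, or 23 over the 4 ages jointly, also include 2 fits chosen after the data were seen, which are described below. Summing P12 replicates 2 and 3 followed a rule on their difference relative to counting noise.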

Additional observations from a re-analysis of the deposited data

Results flagged for a closer look

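At P310 the highest of the 4 samples stood far from the others in 3 of the 20 quantities checked (7 family genes and 13 marker sums), and each time it was replicate 2. Its summed CPM was 8304 for committed oligodendrocyte precursor markers, 67761 for myelinating oligodendrocyte markers and 892 for immature neuron markers. The gap to the next sample was 0.989, 0.989 and 0.894 of the range, above the limit that Dixon's test sets for 4 samples. Chance sets apart about 1 in 20 such groups. None of the 7 family genes stood apart in this way, although replicate 2 also had the most Grm3, Grm4, Grm5 and Grm7 at P310. Grm6 had no count in any P310 sample and so could not stand apart. The samples at the other ages are too few for this check.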

How the results depend on the processing

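The call of Grm3 from E16 to P12 held in all 24 alternatives. Counts of called receptors moved in some: from E16 to P12 (1) to 2 with DESeq2, no filter, P12 replicates 2 and 3 kept apart, or only the ages compared, each time by adding Grm7; from E16 to P80 (2) to 1 with limma-voom and to 3, adding Grm4, with no filter or only the ages compared; over the 4 ages (1) to 2 with DESeq2 and 3 with no filter. Leaving out 1 sample gave 1 to 2, 0 to 2 and 0 to 2. No receptor was called in the other steps under any alternative. The count of all genes from P12 to P80 (301) was 637 with DESeq2, 877 with no filter, 490 with limma-voom, 521 with P12 replicates kept apart and 71 to 446 without 1 sample. From P80 to P310 (0) it was 28 with DESeq2, 423 with no filter and 0 to 1 without 1 sample, and from E16 to P12 3748 to 6553 (main 5765).

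Uncalled directions turned in places. Grm8 from E16 to P12 was 0.23 with P12 replicates kept apart and 0.01 with limma-voom, only these ages or upper quartile scaling. Grm7 from P12 to P80 was -0.18 with P12 replicates kept apart, and with limma-voom Grm5 and Grm7 from P80 to P310 were -1.09 and -0.45. Without 1 sample in turn, E16 to P12 gave -1.97 to 1.49 for Grm4, -1.62 to 1.28 for Grm5, -0.02 to 3.70 for Grm7 and -2.02 to 0.67 for Grm8; P12 to P80 gave -7.39 to 2.33 for Grm2, -1.19 to 1.71 for Grm5, -0.73 to 2.99 for Grm7 and -2.06 to 2.40 for Grm8. P80 to P310 gave -0.68 to 0.50 for Grm3, -1.22 to 0.80 for Grm4, -1.04 to 0.62 for Grm5 and -0.53 to 1.24 for Grm7. E16 to P80 gave -0.45 to 0.60 for Grm5 and -2.16 to 0.94 for Grm8. The causes were not tested.

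Chosen after seeing the data, 2 fits left out P310 replicate 2 together with 1 P12 sample. Without P12 replicate 1, 2 receptors, Grm3 and Grm7 (3.73), were called from E16 to P12, where Grm4, Grm5 and Grm8, not called, were 1.53, 1.31 and 0.71; 3 were called from E16 to P80, and Grm5 and Grm7 from P80 to P310 were -1.05 and -0.54. Without P12 replicate 2-3, 1 receptor was called from E16 to P12 and 3 over the 4 ages, 459 genes were called from P12 to P80, Grm5 and Grm7 were -1.62 and -0.02 from E16 to P12, and Grm2, Grm5, Grm7 and Grm8 were 2.33, 1.71, 2.99 and 2.40 from P12 to P80.

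Whether replicate numbers pair the samples could not be settled. Correlations of deviations were -0.094 to 0.208 over 15 pairs of the same number, 3 of them over 0.1. Over 38 other pairs they were -0.233 to 0.233, with 4 over 0.1. The number given to the summed P12 sample was a choice. Deviations of both P12 samples mirror each other, so these pairs are not independent. With a replicate block 3 receptors were called over the 4 ages. Grm4, Grm5 and Grm8 were -0.52, -0.40 and 0.03 from E16 to P12, Grm5 0.34 from P12 to P80, Grm3 and Grm4 0.21 and 0.17 from P80 to P310, and Grm5 -0.07 from E16 to P80. Called genes were 5368, 243, 0 and 8267 in these comparisons.

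With 2 to 4 samples per age, intervals of the receptors were as wide as -5.17 to 1.64 on the log2 scale (Grm2 from E16 to P12), and Grm2 and Grm8 rested on 0 to 9 counts in some samples, which limits what could be detected.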
